A study of Caenorhabditis elegans with 12 samples.

Results

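The genes described here are 10 of the nematode *Caenorhabditis elegans*, *dod-3*, *dod-17*, *dod-19*, *dod-21*, *dod-22*, *dod-24*, *irg-4*, *irg-5*, C32H11.3 and C32H11.4, a group of CUB-domain and immune genes named for repression by the transcription factor DAF-16. They were taken by name from the RNA-seq table, and all 10 were among its 19089 genes. RNA came from pools of whole CL2006 worms, which carry human Aβ under the *unc-54* promoter of body wall muscle (the labels give the genotype as WT), harvested at day 6 of adulthood after growth at 20 °C. ABPS worms were fed bacteria for RNAi of Aβ and received the 5MER peptide, a short peptide derived from human CD44, and AB0S worms were fed the same bacteria and received M9 buffer. EVPS worms were fed bacteria with the empty vector (EV) and received the peptide, and EV0S worms were fed EV bacteria and received the buffer. Each of the 4 groups had 3 libraries, numbered by the repeat of the procedure, and all worms were of the second generation on their bacteria. The values are read counts that the authors normalized between libraries and corrected for the effect of the 3 repeats, so they have no unit, and the sequencing depth behind them is unknown.

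DAF-16 is the FOXO transcription factor that the insulin/IGF receptor DAF-2 holds out of the nucleus. Genes named *dod* (downstream of DAF-16) were found by their changed expression when this pathway is reduced, and genes named *irg* (infection response gene) by their induction upon infection. CUB-like domain proteins are a worm family of predicted secreted proteins, many of which are expressed in the intestine and induced by bacterial pathogens, in part through the p38 kinase PMK-1. No group of these worms lacked DAF-16, and repression of the genes by it was not tested. In the literature *dod-3* is usually listed with the genes that DAF-16 raises, against the name of the group.

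The genes lie on 2 chromosomes (Ensembl 115 annotation of WBcel235), 7 on chromosome IV and 3 on chromosome V, and no exon of them overlaps another gene. Of the 10 genes 6 lie within 59.8 kb, chromosome IV, 12918556 to 12978343. In order these are C32H11.3 (12918556 to 12920393, plus strand), C32H11.4 (12921264 to 12923296, plus), *dod-21* (12936738 to 12937988, plus), *dod-24* (12940106 to 12941354, minus), *dod-22* (12965374 to 12967392, plus) and *dod-17* (12976303 to 12978343, plus). A further gene of this chromosome, *irg-4* (12435833 to 12438236, plus), is 480.3 kb away from C32H11.3. On chromosome V lie *dod-19* (411782 to 414759, minus), *dod-3* (2730622 to 2731098, minus) and *irg-5* (13737010 to 13738474, minus).

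Their levels differed widely. Per kb of exon, the mean normalized value over the 12 libraries was highest for *dod-19*, at 3097 per kb, followed by *dod-22* at 712, *dod-24* at 612, *irg-4* at 453, *dod-3* at 447, C32H11.4 at 375, *dod-17* at 112 and *irg-5* at 67.3 per kb. This order pools the groups and is not the same in each. *dod-3*, for example, had a mean of 613 per kb in AB0S worms, above *irg-4* (362) and C32H11.4 (351), and of 312 per kb in EV0S worms, below both (433 and 406). C32H11.3, at 17.97 per kb, and *dod-21*, at 9.43 per kb, were in the lower part of the table, with mean values of 22.7 and 10.7 that stand at percentiles 27.2 and 19.4 of all genes. The lowest of the 10 thus gives the least precise comparisons, and *dod-21* varied 4.79-fold between its lowest and highest library.

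**Figure D1:**
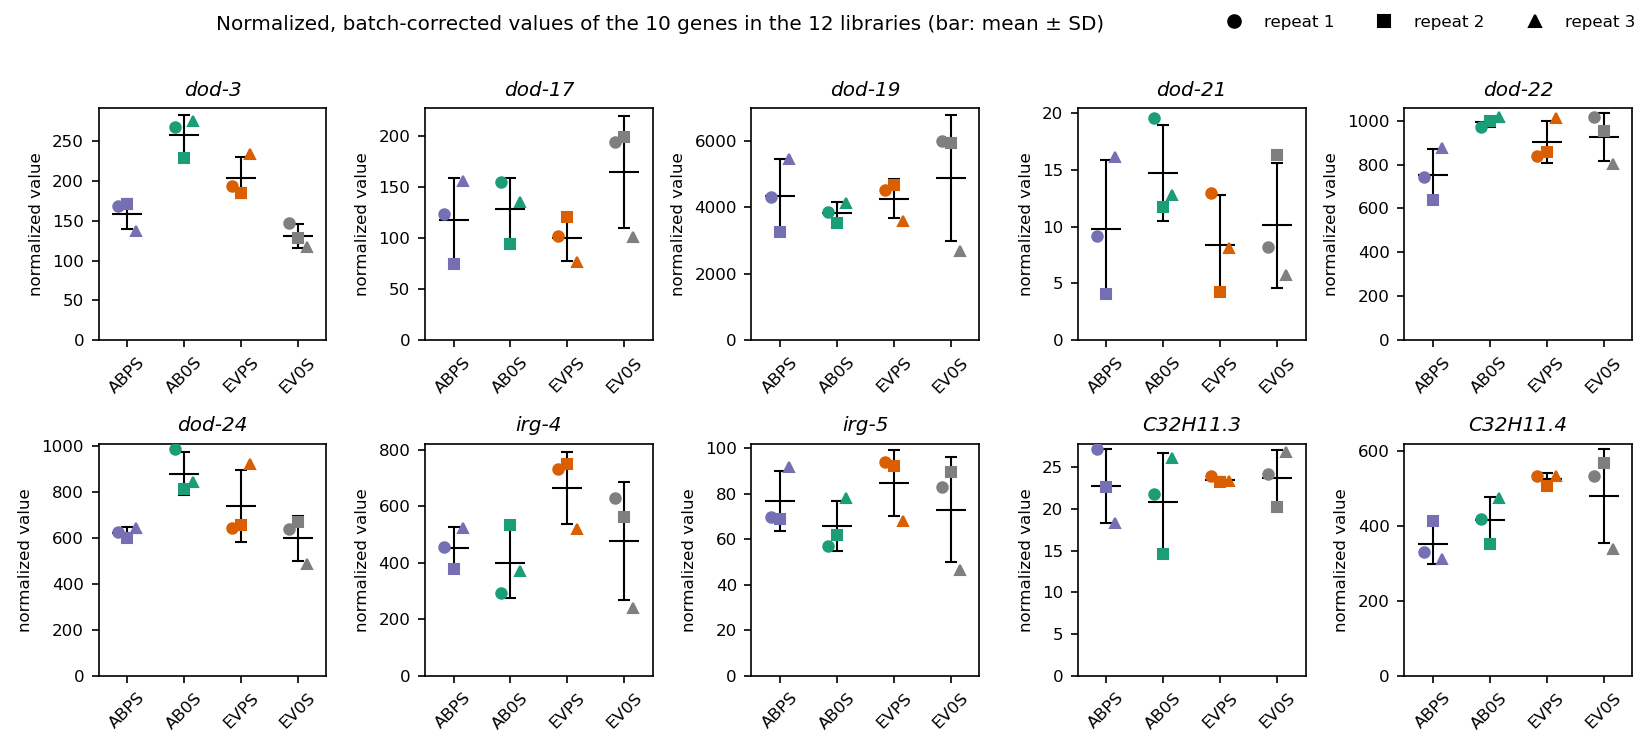
Normalized, batch-corrected values (linear vertical axis from 0, no unit) of the 10 genes in the ABPS, AB0S, EVPS and EV0S libraries. Symbols stand for repeats 1, 2 and 3, and bars for the mean ± SD of 3 libraries. The 3 AB0S values of *dod-3*, 229 to 276, lie above the 3 EV0S values, 117 to 147. AB0S and EV0S libraries were separate, in either direction, for 27% of all genes.

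One library stood apart before any comparison of the genes. EV0S replicate 3 had the lowest value of the 12 libraries for 5 of the 10 genes, and its normalized values summed to 24082800, against 28461500 and 29142800 in the other EV0S libraries. On the first principal component of the log2 values (54.5% of the variance of 15516 genes) it lay at 25.05, against -36.8 and -33.9. The AB0S libraries were at 44.9, 36.7 and 36.1 on this component. Its summed sperm markers (32 *msp* genes) were 6473, against 17053 and 17528, its intestine markers (8 genes) 20542, against 36742 and 36376, its body wall muscle markers (8 genes) 100709, against 178733 and 174041, and its oocyte and eggshell markers (11 genes) 316431, against 386856 and 369779, whereas its neuron markers (6 genes) were 8608, against 7670 and 7964. AB0S libraries had 4749 to 5330 for sperm, 23227 to 24414 for intestine and 100728 to 108529 for body wall muscle markers. On the component and in these lists EV0S replicate 3 was nearer to AB0S than to the other EV0S libraries. In oocyte and eggshell markers (380654 to 396398 in AB0S) it was not. ABPS replicate 2 also stood apart, at 26.3 on the first principal component against -4.0 and -24.2 for the other ABPS libraries, and was the lowest of all libraries for 3 of the genes. In RNA of whole worms, fewer cells of a type and less RNA per cell cannot be told apart. Calls in comparisons with EV0S are therefore given with and without replicate 3.

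Of the 10 genes *dod-3* passed the test in the most comparisons, 3 of 5. These 3 share the EV0S libraries, where its mean was lowest, and so are not separate results. ABPS against AB0S and ABPS against EVPS, which do not use EV0S, did not call it (limma adjusted p = 0.279 and 0.27). *dod-3* is a small gene of 2 exon blocks whose protein has no role known with certainty. Its values were 168, 171 and 137 in ABPS libraries 1 to 3, and 268, 229 and 276 in AB0S libraries. They were 194, 186 and 233 in EVPS libraries, and 147, 129 and 117 in EV0S libraries. Every peptide library was thus below every buffer library under Aβ RNAi, and above every buffer library on EV bacteria. The libraries were separate, in either direction, for 29.4% of all genes in ABPS against AB0S and 27.3% in EVPS against EV0S. The group means ran from AB0S (258 ± 25.2) through EVPS (204 ± 25.6) and ABPS (159 ± 18.9) to EV0S (131 ± 14.8, SD, n = 3 each), and in this order only EVPS and ABPS were neighbours whose libraries did not overlap.

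The comparison of EVPS with EV0S asks which genes the peptide changed where Aβ was high. Genes were called at a Benjamini-Hochberg adjusted p below 0.1 over all 19089 genes in a limma fit of log2(value + 1) with the repeat as a block, the threshold of the study. *dod-3* was 1.56-fold higher in EVPS worms by the ratio of means, a log2 change of 0.64 ± 0.14 (SE, limma adjusted p = 0.0593), higher in 3 of 3 repeats. It was the only one of the 10 called, while 7.33% of all genes were called. The call was lost in 8 of 22 alternative fits, among them those of the compared libraries alone (limma adjusted p = 0.204) and without EV0S replicates 1 or 2, any EVPS replicate or ABPS replicate 1 (limma adjusted p = 0.103 to 0.303). It was kept without EV0S replicate 3 (0.55, limma adjusted p = 0.0567). In this comparison 5 of the 11 oocyte and eggshell markers rose too, *oma-1*, *oma-2*, *egg-1*, *chs-1* and *cpg-1*. The 11 summed to 404899 to 434363 in EVPS libraries and 316431 to 386856 in EV0S libraries, none being at 0 in all libraries. Of them 9 had a log2 change above 0. So had 0 of 8 intestine (median -0.20), 1 of 6 neuron (median -0.29), 2 of 8 body wall muscle and 12 of 32 sperm markers. The part of these markers in the rise of *dod-3* was not tested.

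Where Aβ was suppressed, the comparison of ABPS with AB0S called none of the 10 genes, and 0% of all genes, in the limma fit. The paper, which used DESeq2, does report changed genes in this comparison at the same threshold. At an unadjusted p below 0.05 it had 3 of the 10 genes and 15.9% of all genes, and those 3, *dod-3*, *dod-22* and *dod-24*, were also the ones whose libraries did not overlap between the groups, against 29.4% of all genes in either direction. *dod-3* had a log2 change of -0.70 ± 0.14 (SE, limma adjusted p = 0.279), lower in 3 of 3 repeats. When only the compared libraries were fitted, the 3 genes passed, at limma adjusted p = 0.0367 for *dod-3*, 0.0442 for *dod-22* and 0.0175 for *dod-24*, beside 2427 of all genes. Without ABPS replicate 2, *dod-3* passed (-0.81, limma adjusted p = 0.0801), beside 720 of all genes. Of the 32 sperm markers 31 had a log2 change above 0 (median 1.18), and so had all 8 body wall muscle markers (median 0.47), none called. Of the other lists 4 of 8 intestine, 6 of 11 oocyte and eggshell and 1 of 6 neuron markers were above 0. The sperm markers summed to 6233 to 17470 in ABPS libraries and 4749 to 5330 in AB0S libraries. The part of these markers in the lower values of the 3 genes was not tested.

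*dod-24* and *dod-22* encode CUB-like domain proteins known as immune response genes induced by *Pseudomonas aeruginosa*. *dod-24* had values of 626, 596 and 644 in ABPS libraries, against 983, 811 and 840 in AB0S libraries. The 3 ABPS libraries were close together and all below AB0S, at a log2 change of -0.49 ± 0.16 (SE, limma adjusted p = 0.279). For *dod-22* the values were 744, 638 and 876 in ABPS libraries, against 971, 999 and 1016 in AB0S libraries, and the change was -0.41 ± 0.12 (SE, limma adjusted p = 0.279). Both groups of *dod-22* were thus separate too, with AB0S at a spread of only 23.1 (SD, n = 3). Separate groups were found for 29.4% of all genes in this comparison, in either direction.

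On EV bacteria neither of these 2 genes passed. *dod-24* had values of 639.96, 654 and 918 in EVPS libraries, against 636, 669 and 485 in EV0S libraries, and *dod-22* had 839, 859 and 1012 in EVPS libraries, against 1017, 955 and 802 in EV0S libraries. The groups overlapped for both genes, with log2 changes of 0.30 (95% interval -0.06 to 0.66) for *dod-24* and -0.03 (-0.31 to 0.24) for *dod-22*. Without EV0S replicate 3 they were 0.10 for *dod-24* and -0.20 for *dod-22*.

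**Figure D2:**
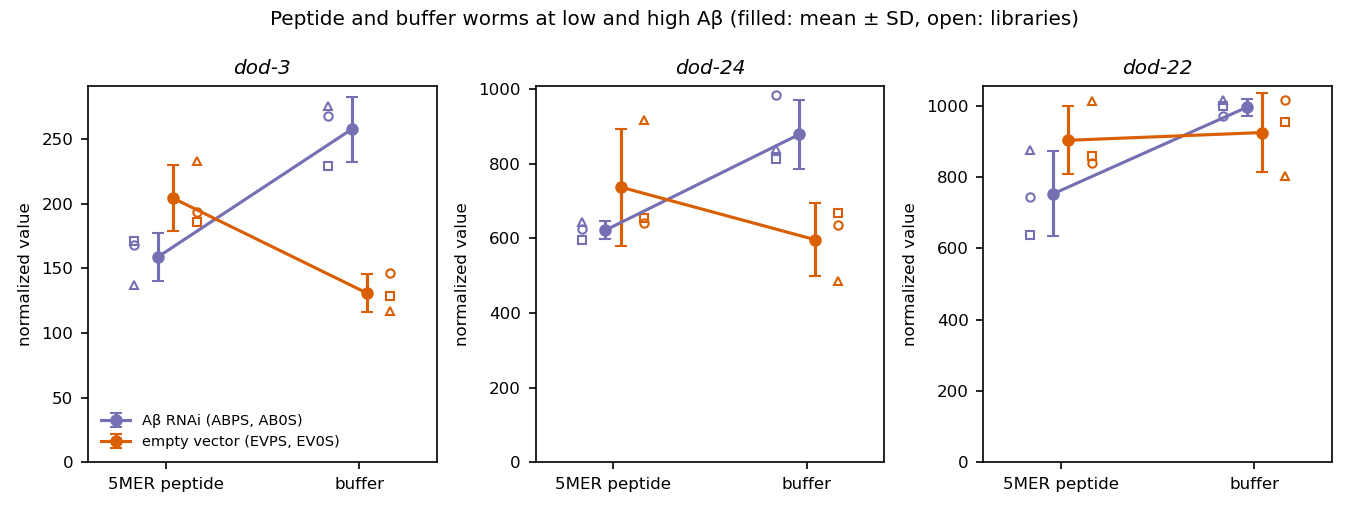
Normalized values of *dod-3*, *dod-24* and *dod-22* (linear axis from 0) in peptide and buffer worms, with Aβ RNAi (ABPS, AB0S) and empty vector (EVPS, EV0S) as lines. Filled circles with bars are means ± SD of 3 libraries and open symbols the libraries; for *dod-3* the lines cross, with means of 159 in ABPS and 258 in AB0S worms, and 204 in EVPS and 131 in EV0S worms.

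Whether the peptide's effect differed with the bacteria was tested as the difference of the 2 effects, EVPS over EV0S minus ABPS over AB0S. For *dod-3* it was 1.33 ± 0.20 on the log2 scale (SE, limma adjusted p = 0.0707), rank 6 by p among the 19089 genes. It was 1 of the 10 genes called, beside 2.98% of all genes. The call was lost in 10 of the alternative fits, namely without the variance trend and without any single library other than replicate 3 of EVPS, ABPS or EV0S (limma adjusted p = 0.116 to 0.279), and was kept without EV0S replicate 3 (1.24, limma adjusted p = 0.00402). *dod-24* had the next largest difference, 0.79 ± 0.23 (SE, limma adjusted p = 0.126), which did not pass, and *dod-22* had 0.38 ± 0.17 (SE, limma adjusted p = 0.285). Both comparisons behind this difference are on separate libraries. For the difference 1 of 32 sperm markers (median -1.21) and 1 of 8 body wall muscle markers (median -0.53) were above 0. So were 0 of 8 intestine, 9 of 11 oocyte and eggshell and 3 of 6 neuron markers. The part of these markers in the difference for *dod-3* was not tested.

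The comparison of AB0S with EV0S asks what lowering Aβ did in worms that received no peptide. Of the 10 genes 2 rose, while 11.1% of all genes were called, 538 higher and 1576 lower. *dod-3* was 1.97-fold higher in AB0S worms, a log2 change of 0.97 ± 0.14 (SE, limma adjusted p = 0.0167, higher in 3 of 3 repeats). *dod-24* was 1.47-fold higher, a log2 change of 0.57 ± 0.16 (SE, limma adjusted p = 0.0757, higher in 3 of 3 repeats), and 0.37 without EV0S replicate 3. The other 8 genes did not pass, with log2 changes from -0.33 to 0.58. The *dod-3* call was lost without EV0S replicate 1 (limma adjusted p = 0.1, just above the threshold) or replicate 2 (limma adjusted p = 0.115). The *dod-24* call was lost in 8 alternative fits, without the variance trend and without EV0S replicates 1 or 2, EVPS replicate 2, any AB0S replicate or ABPS replicate 1 (limma adjusted p = 0.108 to 0.25). In this comparison 15 of the 32 sperm markers and *unc-54*, the myosin gene whose promoter drives the Aβ transgene, fell. Log2 changes above 0 were found for 1 of 32 sperm (median -1.32), 0 of 8 body wall muscle (median -0.30) and 0 of 8 intestine markers (median -0.30). They were also found for 11 of 11 oocyte and eggshell and 5 of 6 neuron markers. The summed sperm markers were 4749 to 5330 in AB0S libraries and 6473 to 17528 in EV0S libraries, none of these markers being at 0 in all libraries. The part of these marker lists in the rise of *dod-3* and *dod-24* was not tested.

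With the peptide present, ABPS against EVPS called none of the 10 genes, while 0.272% of all genes were called, and 2 of the 10 had an unadjusted p below 0.05, beside 15.8% of all genes. These were *dod-3* (log2 change -0.36, limma adjusted p = 0.27) and C32H11.4, a CUB-like gene of the chromosome IV stretch. C32H11.4 had values of 331, 414 and 311 in ABPS libraries, against 534, 507 and 535 in EVPS libraries. The groups did not overlap, as for 31.3% of all genes in either direction, and the log2 change was -0.59 ± 0.19 (SE, limma adjusted p = 0.214). It had 419.7, 352 and 474 in AB0S libraries and 534, 569 and 337 in EV0S libraries.

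**Figure D3:**
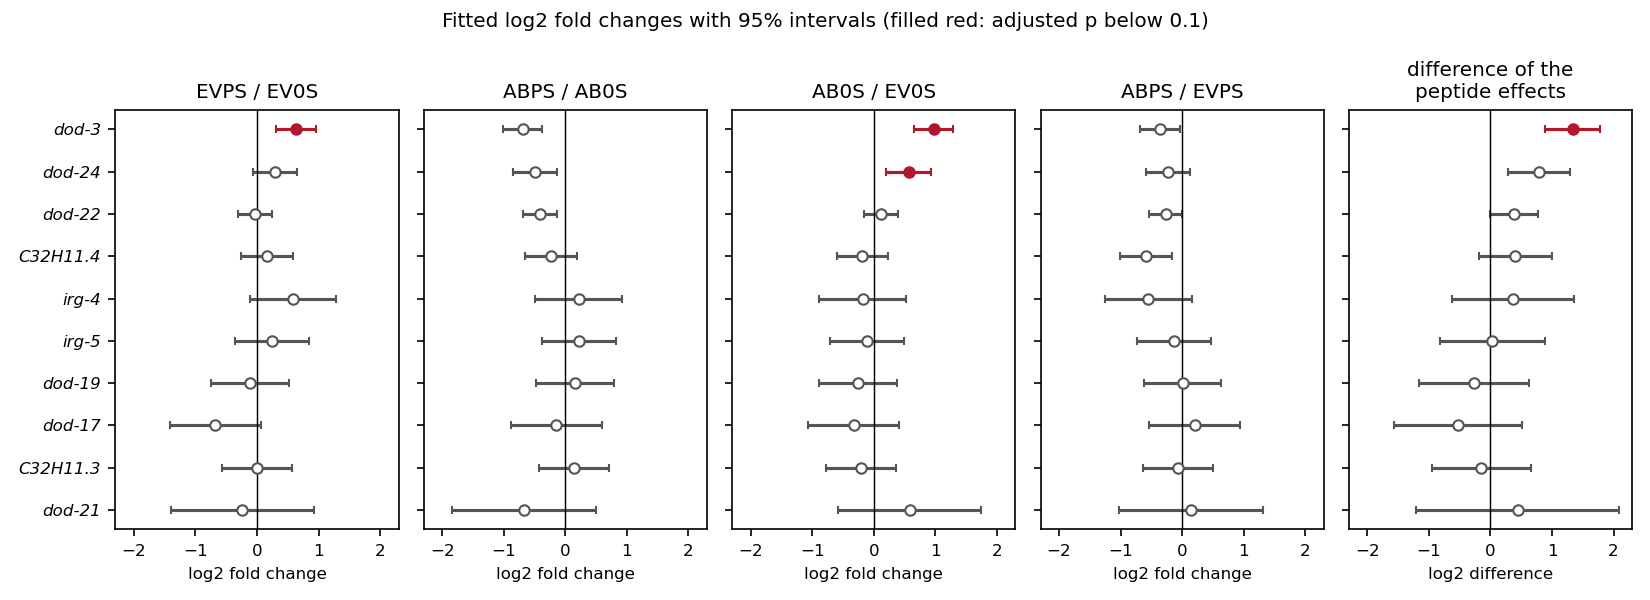
Fitted log2 fold changes of the 10 genes (rows) in each comparison (panels), with 95% intervals from limma; filled red points passed an adjusted p below 0.1. *dod-3* is filled in 3 panels and *dod-24* in 1, AB0S over EV0S, at 0.97 and 0.57.

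The remaining CUB-like genes and *dod-19* did not pass in any comparison over all 12 libraries. *dod-17*, known to respond to pathogens, had values of 102, 121 and 76.9 in EVPS libraries, against 194.5, 199 and 102 in EV0S libraries. Only EV0S replicate 3 lay within the EVPS range, and the log2 change was -0.68 ± 0.33 (SE, limma adjusted p = 0.3, lower in 3 of 3 repeats). *irg-4*, a target of the p38 pathway, had 732, 749 and 519 in EVPS libraries, against 631, 563 and 238 in EV0S libraries. It was higher in each of the 3 repeats, at 0.58 ± 0.31 (SE, limma adjusted p = 0.355), with overlap between the groups, and at 0.17 without EV0S replicate 3. In low Aβ worms *irg-4* had 455, 379 and 525 in ABPS libraries and 292, 533 and 372 in AB0S libraries.

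*dod-19*, whose protein has no role known with certainty, had values of 4526, 4665 and 3573 in EVPS libraries, against 5992, 5925 and 2675 in EV0S libraries. EV0S replicates 1 and 2 were above all EVPS libraries and replicate 3 below them. In ABPS libraries it had 4315, 3257 and 5449.7, and in AB0S libraries 3855, 3511 and 4132, again with overlap. *irg-5*, a CUB-like target of PMK-1, ranged from 46.6 to 94.1 over the 12 libraries, C32H11.3 from 14.6 to 27.2 and *dod-21* from 4.09 to 19.6, and the groups overlapped in every comparison of these 3 genes.

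Without EV0S replicate 3 more genes passed, among the 10 and among all genes. In EVPS over EV0S 3 of the 10 passed (13.8% of all genes): *dod-3* was higher, and *dod-17* (-1.03, limma adjusted p = 0.0623) and *dod-19* (-0.53, limma adjusted p = 0.0887) were lower. In ABPS over AB0S 3 passed (16.2% of all genes), all lower: *dod-3* (limma adjusted p = 0.0144), *dod-22* (0.0137) and *dod-24* (0.0276). Their fold changes do not involve EV0S and were the same as above, with smaller standard errors. These were 0.13 for *dod-3*, 0.077 for *dod-22* and 0.11 for *dod-24*, against 0.14, 0.12 and 0.16 with all libraries. In AB0S over EV0S 5 passed (34.2% of all genes), *dod-3* and *dod-24* higher and *dod-19*, *irg-4* and C32H11.4 lower. In ABPS over EVPS 2 passed (15.3% of all genes), *dod-22* (-0.27) and C32H11.4, both lower. For the difference of the peptide effects 3 passed (25.7% of all genes), *dod-3*, *dod-24* (0.59, limma adjusted p = 0.0404) and, in the other direction, *dod-19* (-0.69, limma adjusted p = 0.0636).

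Across the 10 genes no comparison moved the whole group one way. The median log2 change was 0.08 in EVPS over EV0S, with 5 genes above 0, against -0.05 for all genes. It was -0.19 in ABPS over AB0S (4 above 0), against -0.02 for all genes, -0.14 in AB0S over EV0S (4 above 0), against 0.03 for all genes, and -0.18 in ABPS over EVPS (3 above 0), against 0.00311. The difference of the peptide effects had a median of 0.38 (7 above 0), against -0.03 for all genes, and without EV0S replicate 3 this median was -0.01. The median in AB0S over EV0S was above 0 with quantile scaling (0.0395) and without EV0S replicate 1 (0.0770), EV0S replicate 2 (0.0375) or AB0S replicate 1 (0.0844), and that in EVPS over EV0S was -0.0790 without EV0S replicate 3. These comparisons share libraries in pairs and are not independent of each other.

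**Figure D4:**
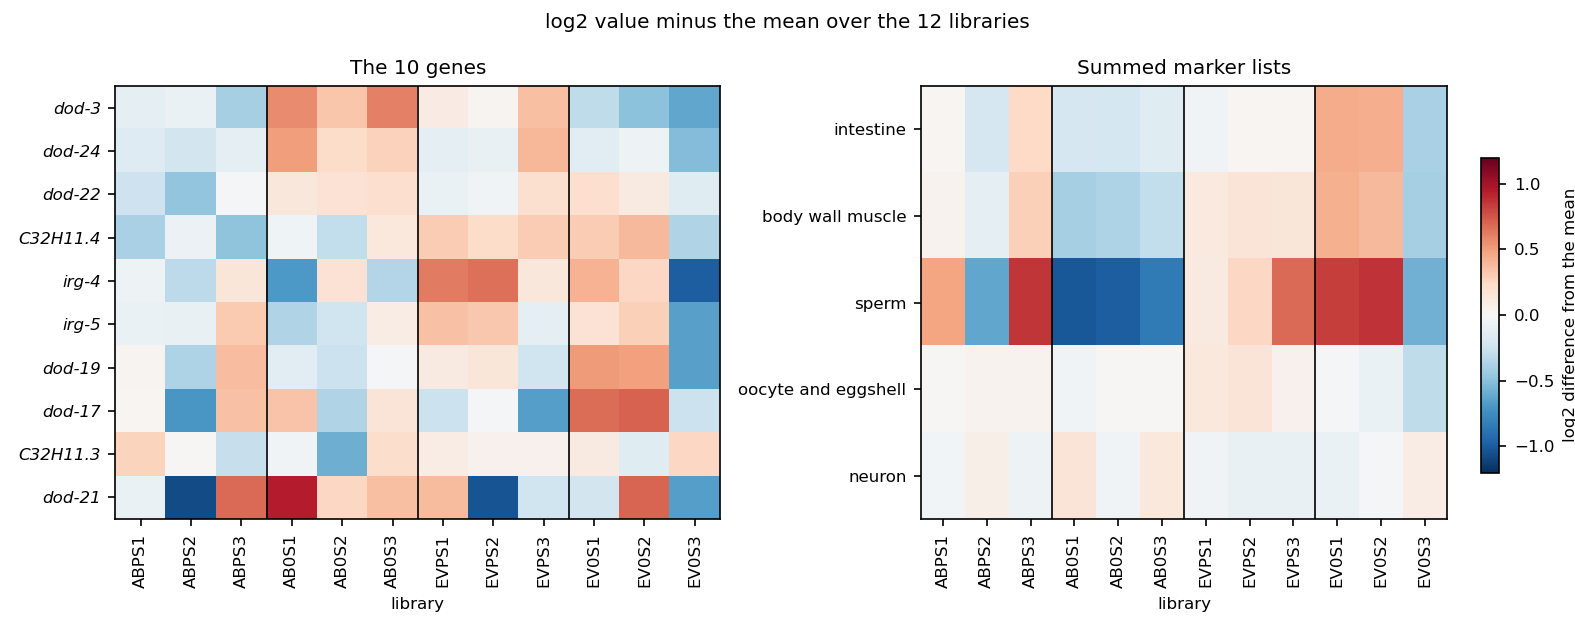
Left, log2 value of each of the 10 genes minus its mean over the 12 libraries (colour scale in log2 units), with libraries in the order ABPS, AB0S, EVPS, EV0S; right, the same for summed marker lists of 5 cell types. In EV0S replicate 3, 5 of the 10 genes are at their lowest, and the summed intestine markers are at 20542 against 36742 and 36376 in the other EV0S libraries.

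The neighbours on chromosome IV were compared with the members there; the stretch was defined after the positions had been looked up. It holds 19 protein-coding genes, 16 of them in the table, and 10 of these are not among the genes described. In AB0S over EV0S 2 of the 10 neighbours fell, C32H11.5 (-1.19, limma adjusted p = 0.0487) and C32H11.6 (-1.63, limma adjusted p = 0.0461), whereas *dod-24*, in the same stretch, rose. C32H11.6 had a mean value of only 2.83 in AB0S worms and 10.98 in EV0S worms. In the other 4 comparisons none of the 16 passed. Of the 16 genes 11 had a log2 change below 0 in AB0S over EV0S, where 55% of all genes were above 0. The count below 0 was 12 in EVPS over EV0S, 9 in ABPS over AB0S, 12 in ABPS over EVPS and 11 for the difference. In these 4 the share of all genes above 0 was 42.4%, 46.7%, 50.4% and 46.8%.

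Related genes, from lists fixed by function or name, were mostly not called. Among 4 other *dod* genes *dod-23* rose in AB0S over EV0S (0.40, limma adjusted p = 0.0381), and none of 5 other *irg* genes passed in any comparison. Of 7 further PMK-1-dependent effectors found in the table *cnc-4*, an antimicrobial peptide gene, fell in AB0S over EV0S, and of 12 p38 pathway genes *nsy-1*, the MAP kinase kinase kinase upstream of PMK-1, rose. Of 15 genes that DAF-16 induces, *icl-1* fell in EVPS over EV0S, *lea-1* rose and *hsp-16.2* fell in AB0S over EV0S, and *hsp-16.2*, a small heat shock protein gene with close copies between which reads may be split, fell in ABPS over EVPS too. Of 17 insulin/IGF pathway genes 4 rose in EVPS over EV0S, where 7.33% of all genes were called, among them *daf-2* (7073 ± 625 in EVPS and 5626 ± 201 in EV0S worms, SD, n = 3 each), *akt-1* and *aap-1*. These calls were lost in the 7 alternative fits that called 0 genes in all in this comparison, namely with only the groups compared, without the variance trend, and without EV0S replicate 1 or 2, EVPS replicate 1 or 2, or ABPS replicate 1. The *daf-2* gene encodes the receptor, *akt-1* a kinase that acts on DAF-16, and *aap-1* the adaptor of the PI3 kinase. The kinase gene *pdk-1* rose in AB0S over EV0S, where 11.1% of all genes were called. For the difference of the peptide effects 2 of the 17 passed, *daf-2* among them, beside 2.98% of all genes. These 2 calls were lost in the alternative fits that called 0 genes in all for this difference. Those were the fits without the variance trend and without any single library other than replicate 3 of EVPS, ABPS or EV0S. None of the 8 intestine markers passed in any comparison. Their sum was 23433 to 31865 in ABPS, 23227 to 24414 in AB0S, 26232 to 27394 in EVPS and 20542 to 36742 in EV0S libraries, and its part in the values of the 10 genes was not tested.

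The genes outside the group whose log2 profile over the 12 libraries was closest to the median profile of the 10 were *clc-1*, *ptr-24*, C49C3.4, C25E10.8 and *bgal-2*. Their root mean square log2 differences from it were 0.0801, 0.0904, 0.0975, 0.0988 and 0.0991 (genes averaging under 10 were left out). The 10 genes themselves were farther from their own median profile, from 0.179 for *dod-22* to 0.552 for *dod-21*. All of these profiles share the same 12 libraries and the low EV0S replicate 3.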

How the data were processed

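Whole-worm mRNA libraries of 4 groups, 3 repeats each, were used. Per the labels and the study's methods, the authors trimmed reads (fastx_toolkit, cutadapt 2.10), aligned them to WBcel235 (TopHat2 2.1.1, Ensembl 106), counted them per gene (HTSeq 2.01), normalized with DESeq2 1.36.0 and corrected for the repeats by a method not given in the sources used here. The deposited value is treated as a score: a normalized, batch-corrected count on a linear scale, 307 of 229068 being below 0. No count test was used, and depth is unknown. Since the correction removed repeat effects before deposit, the spread between libraries may be understated, and p-values with it.

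After negative values had been replaced by 0, limma 3.58.1 (R 4.3.3, eBayes with trend) was run on log2(value + 1) of the 12 libraries, the model holding group and repeat. Fold changes on this scale understate low genes. Benjamini-Hochberg adjustment covered 19089 genes (called below 0.1). An exact permutation test of 3 against 3 cannot give p below 0.1 and was not used. Groups came from sample titles. Members and lists were chosen with earlier results of these data known. All 10 members are named; other list genes are named where called, at most 4 per list and comparison by smallest p, except 1 gene that is not reported here; C32H11.5 and C32H11.6 belong to such a list. The 5 closest profiles follow a fixed rule. The analysis was tested on simulated data. These had independent noise, no outlying library and no prior correction for repeats, so the test does not cover those features of the libraries. Alternatives were pseudocounts of 0.1 and 5, a mean of at least 10, no block, only the groups compared, TMM and quantile scaling, eBayes without trend or robust, values below 0 kept, a threshold of 0.05 and each library left out. Figures used Python 3.11.15 and matplotlib 3.10.9. The Aβ transcript was not analysed here, so its suppression was not checked. No member sequences were used here.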

Additional observations from a re-analysis of the deposited data

Results flagged for a closer look

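The effect of the 5MER peptide on *dod-3* differed between worms on EV bacteria and worms on Aβ RNAi bacteria by a test of the difference itself over all 12 libraries. The difference was 1.33372 on the log2 scale (limma adjusted p = 0.0707), with a change of 0.64 in EVPS over EV0S, higher in 3 of 3 repeats, and of -0.70 in ABPS over AB0S, lower in 3 of 3 repeats. The change in ABPS over AB0S did not itself pass (limma adjusted p = 0.279). The call of the difference was kept in 11 of 21 alternative fits, and limma adjusted p reached 0.279 in the others. Most of the fits that lost this call left out 1 library.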

How the results depend on the processing

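Of 50 fold changes (10 genes in 5 comparisons), 26 kept their direction in every alternative fit and 24 changed sign in at least 1. There were 49 sign changes among 1090 values, and 0 of them in a fold change that was called in either fit. The 4 calls over all libraries kept their direction throughout. The limits are the 3 libraries per group, the unknown depth, the prior correction for repeats and EV0S replicate 3. The cause of a change was not tested.

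Of the 10 genes, EVPS over EV0S called 0 with only the groups compared, without the variance trend and at an adjusted p below 0.05. ABPS over AB0S called 3 with only the groups compared. AB0S over EV0S called 1 without the trend and 1 below 0.05. The difference of the peptide effects called 2 without the replicate block, 2 with TMM and 2 with quantile scaling, and 0 without the trend and below 0.05. With single libraries left out, the counts ranged over 0 to 3, 0 to 3, 0 to 5 and 0 to 2 in EVPS over EV0S, ABPS over AB0S, AB0S over EV0S and ABPS over EVPS, and over 0 to 3 for the difference. The median of the 10 genes then ranged from -0.0790 to 0.37 in EVPS over EV0S from -0.37 to -0.0220 in ABPS over AB0S, from -0.33 to 0.0844 in AB0S over EV0S, from -0.35 to -0.15 in ABPS over EVPS and from -0.0135 to 0.47 for the difference. Over all genes and all alternatives, the counts of called genes were 0 to 2633, 0 to 3085, 10 to 6524, 0 to 2923 and 0 to 4908 in the same order.

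Libraries with the same repeat number did not deviate together (mean correlation -0.181, range -0.61 to 0.0766, against 0.0923 for other numbers), after the authors' correction. Since that correction removes what the libraries of a repeat share, the correlation cannot tell whether the repeats differed. A fit without the block takes no account of the correction, so its p-values may be too low. Without the replicate block, all-gene counts were 2490, 7, 3380, 920 and 1785. The block changed 1 call among the 10 genes, *dod-24* for the difference (limma adjusted p = 0.0539 without it).

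The sign changes were as follows. TMM scaling gave 0.0182 for *dod-22* and 0.0443 for C32H11.3 in EVPS over EV0S, and -0.00362 for *dod-19* in ABPS over EVPS. Quantile scaling gave 0.17 for C32H11.3 in EVPS over EV0S, 0.10 for *irg-5* in AB0S over EV0S and 0.0220 for C32H11.3 for the difference. Neither scaling moved the median of all genes by over 0.1. The other sign changes came from leaving out single libraries. In EVPS over EV0S these ranges were -0.53 to 0.14 for *dod-19*, -0.66 to 0.46 for *dod-21*, -0.20 to 0.0635 for *dod-22*, -0.0776 to 0.44 for *irg-5*, -0.11 to 0.074 for C32H11.3 and -0.0803 to 0.31 for C32H11.4. In ABPS over AB0S these ranges were -0.52 to 0.19 for *dod-17*, -0.18 to 0.41 for *dod-19*, -0.11 to 0.50 for *irg-4*, -0.0184 to 0.45 for *irg-5* and -0.0467 to 0.37 for C32H11.3. In AB0S over EV0S these ranges were -0.0573 to 0.21 for *dod-22*, -0.59 to 0.14 for *irg-4*, -0.44 to 0.0806 for *irg-5* and -0.43 to 0.00998 for C32H11.4. In ABPS over EVPS these ranges were -0.17 to 0.54 for *dod-17*, -0.32 to 0.26 for *dod-19*, -0.39 to 0.56 for *dod-21*, -0.38 to 0.00295 for *irg-5* and -0.18 to 0.16 for C32H11.3. For the difference of the peptide effects these ranges were -0.69 to 0.0681 for *dod-19*, -0.042 to 0.69 for *irg-4*, -0.30 to 0.27 for *irg-5* and -0.37 to 0.0427 for C32H11.3.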
